A study of Homo sapiens with 14 samples.

Results

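The genes that encode the RNA polymerases, Mediator and the general transcription factors were followed in U2OS, a human osteosarcoma cell line. Members were the genes whose symbol is POLR1, POLR2 or POLR3 plus a letter, MED plus digits, TAF plus digits, GTF2 or GTF3 with any ending, or TBP, and that had a probe set annotated to that gene alone. The rule found 89 of the 11963 genes on the array, read by 143 probe sets. Where a gene had several probe sets, the one with the highest mean signal stood for it. There were 26 polymerase subunit genes, 21 Mediator genes, 21 genes for TBP and its associated factors (TAFs), 15 GTF2 genes and 6 GTF3 genes.

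All cells carried ER-E2F1, in which the E2F1 protein, a transcription factor of the cell cycle, is joined to the hormone-binding part of the estrogen receptor so that 4-hydroxytamoxifen (OHT) activates it. They were infected with a lentivirus and moved 24 h later to serum-free medium. After 24 h in that medium they spent 6 h with 20 nM OHT or without it. The viruses were shFOXO33 and shFOXO707, which each target both FOXO1 and FOXO3, and a scrambled virus. With OHT there were 2 arrays of shFOXO33 cells, 2 arrays of shFOXO707 cells and 4 arrays of scrambled cells. Without OHT there was 1 array of shFOXO33 cells, 1 array of shFOXO707 cells and 4 arrays of scrambled cells. Every group was serum-starved, and no group that received OHT lacked ER-E2F1, so an effect of OHT on other proteins cannot be told apart from that of E2F1. The labels do not say whether arrays of a group came from separate cultures, so the p-values reflect no more than the spread among these arrays, possibly a technical one.

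RNA polymerase I makes the large ribosomal RNA, polymerase II the messenger RNAs, and polymerase III transfer RNA, 5S ribosomal RNA and other short RNAs. Each enzyme has subunits of its own and some that are shared. General transcription factors bring a polymerase to a promoter: TBP bends the DNA and sits in SL1 for polymerase I, in TFIID for polymerase II and in TFIIIB for polymerase III, each time with other partners. Mediator, built from a head, a middle, a tail and a detachable kinase module, links DNA-bound activators to polymerase II.

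The 7 member genes whose mean level lay under the filter on dim probe sets were POLR3D, TAF1, TAF4B, TAF7L, MED24, MED31 and GTF2IRD2B, which left 82 of 7720 genes tested. TAF4B, TAF7L, MED24, MED31 and GTF2IRD2B were under the filter's signal of 79.1 on all 14 arrays. TAF1, the largest TFIID subunit, had signals of 41.4 to 62.4 in the 4 knockdown arrays and 22.4 to 52 in the 4 scrambled arrays with OHT. Without OHT, TAF1 had 135 and 155 in knockdown cells and 121 to 159 in scrambled cells. POLR3D, a polymerase III subunit, had 47.7 to 75.1 in knockdown cells and 40.2 to 66.5 in scrambled cells with OHT, against 106 and 137 in knockdown cells and 92 to 107 in scrambled cells without OHT. On these probe sets both genes were dimmer on all 8 OHT arrays than on all 6 arrays without OHT. A dimmer TAF1 probe set, with a mean signal of 37.3, went the other way, by log2 changes of 0.44 in scrambled and 0.26 in knockdown cells. As untested genes TAF1 and POLR3D enter none of the counts given here. GTF2H2B and POLR2J4 are annotated as pseudogenes, and their probe sets may read transcripts of their parent genes.

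FOXO3 had signals of 290 and 325 in shFOXO33 cells, 853 and 766 in shFOXO707 cells and 1740 to 1840 in scrambled cells with OHT. FOXO1 had 140 and 185 in shFOXO33 cells, 218 and 254 in shFOXO707 cells and 456 to 533 in scrambled cells with OHT. Without OHT, FOXO3 had 138 in shFOXO33 cells, 274 in shFOXO707 cells and 415 to 510 in scrambled cells, and FOXO1 had 49.2 in shFOXO33 cells, 39.1 in shFOXO707 cells and 92.4 to 112 in scrambled cells. Signals of arrays of 1 group correlated at 0.992 to 0.994. Of the osteoblast and mesenchymal markers 9 of 11 lay above the filter, with RUNX2 and IBSP below it, as did 3 of 5 epithelial, 3 of 5 neural and 0 of 4 blood cell markers. The summed signal of the neural list was 10400 to 12300 on OHT arrays and 8660 to 9920 on arrays without OHT, with MAP2 and GFAP below the filter, and its part in the results was not tested. The median signal was 114 to 119 on OHT arrays and 137 to 143 on arrays without OHT, although every array had been scaled to 1 common mean. On 2 arrays, those of shFOXO707 cells with OHT, the signal ratio of the 3' to the 5' probe set of ACTB, a measure of RNA integrity, was 1.95 and 2.04, against 1.49 to 1.74 on the other arrays.

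With OHT, most of this machinery was lower in scrambled cells, and a small set with TAF4 at its head was higher. Of the 82 genes tested, 51 were lower, beside 46.4% of all genes, and 10 were higher, beside 24% of all genes (limma, adjusted p under 0.05). The median change over the 82 genes was -0.37 on the log2 scale, beside -0.23 over all 7720 genes. Changes of at least 2-fold were called upward in TAF4, TAF5L, POLR3G, MED13L and POLR3C and downward in 16 genes. Signals are per amount of RNA from a whole culture, so fewer cells that express a gene and less RNA per cell cannot be told apart. When each array was centred on its median, 15 were higher and 35 lower, beside 2570 higher and 2300 lower of all 7720 genes. The share of higher genes among the called ones of the 82 moved to 30% from 16.4%. The median of the 82 genes moved to -0.13 from -0.37 and that of all genes to 0.01 from -0.23. With quantile normalization 13 were higher and 48 lower, a share of 21.3%, beside 2119 higher and 3099 lower of all 7716 genes. Centring reversed the sign of 1 called gene, GTF3A, whose change of -0.19 was the smallest of the calls, and it called GTF2H3, MED4, POLR1E, POLR2H and TAF6L higher. The 16 genes no longer called after centring were GTF2A2, GTF2H2B, GTF2H5, GTF2I, GTF2IRD1, GTF3A, GTF3C4, POLR1B, POLR2C, POLR2E, POLR2G, POLR2J4, POLR2L, TAF10, TAF11 and TAF15.

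**Figure D1:**
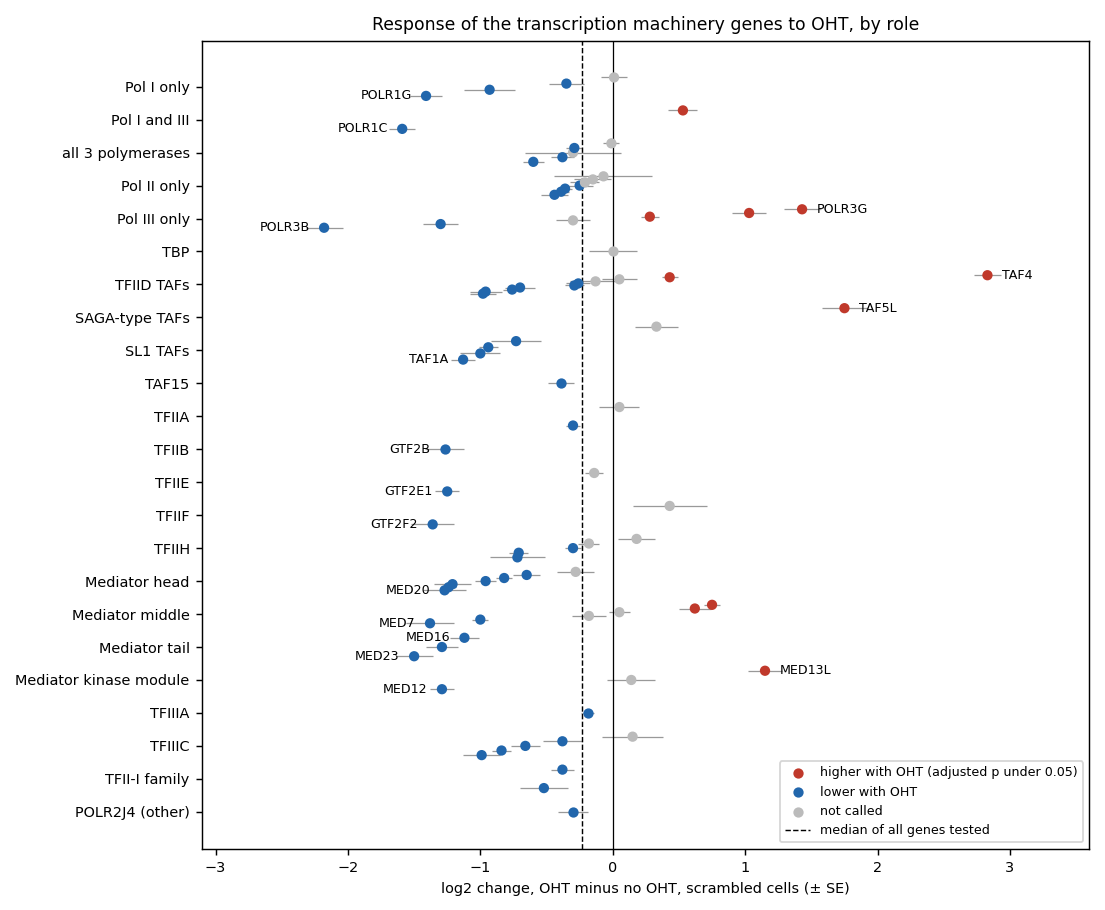
Each point is 1 gene, placed by its log2 change between scrambled cells with and without OHT (horizontal axis, ± SE) in the row of its role in the machinery. TAF4 lies farthest to the right at 2.83 and POLR3B farthest to the left at -2.18, and the dashed line marks the median of all genes at -0.23.

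The TFIID subunits held the largest rise. TAF4, a scaffold subunit of TFIID that activators contact, had signals of 4890, 4840, 4460 and 4840 in scrambled cells with OHT, against 698, 535, 781 and 623 without OHT. The 2 groups were far apart on every array. The log2 change was 2.83 ± 0.10 (SE), a 7.13-fold rise, with an adjusted p of 3.13e-11 (limma, n = 4 each), higher than the change of 99.1% of all genes. A further TAF4 probe set lay below the filter and changed by 1.30. TAF5, a WD40-repeat subunit of TFIID, was 0.43 ± 0.06 higher. Of the other 8 TFIID genes tested, TAF2, TAF13, TAF7, TAF12, TAF10 and TAF11 were lower, by log2 changes of -0.98 to -0.26, and TAF6 and TAF9B were not called, at 0.05 and -0.13. TBP itself, the DNA-binding core of TFIID, had a log2 change of 0.00 ± 0.18, with signals of 362 to 441 with OHT and 390 to 429 without OHT.

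TAF5L belongs not to TFIID but to SAGA-type coactivators, which acetylate histones. Its signals were 1750, 1550, 1550 and 1810 in scrambled cells with OHT, against 499, 443, 515 and 472 without OHT. Every OHT array was above every array without OHT, and the log2 change was 1.75 ± 0.17 (limma adjusted p = 5.39e-07). Its partner TAF6L was not called, at 0.33 ± 0.16. Further TAF6L probe sets, all below the filter, went both ways. Those with mean signals of 77.7, 70.1 and 58.2 changed by -0.65, -0.76 and -0.57, and those with 13.7 and 7.1 by 0.8 and 0.04. The TAFs of SL1, the TBP complex of polymerase I, moved the other way: TAF1A, TAF1C, TAF1B and TAF1D were all 4 lower, by log2 changes of -1.13, -1.0, -0.94 and -0.73. The TAF1D probe set was dim, with a mean signal of 82.1, and a brighter one that names TAF1D together with other genes, at 1900, changed by -0.29. Another TAF1B probe set above the filter changed by -0.43. TAF1A had signals of 80.5 to 101 with OHT and 202 to 230 without OHT, with no overlap.

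Of the 25 polymerase subunit genes tested, 14 were lower, beside 46.4% of all genes, and 4 higher, beside 24% (8 and 6 after median centring). Of the 7 genes tested for subunits of polymerase II alone, 4 were lower and 0 higher, and the changes were small: the median was -0.25, close to that of all genes, and the range -0.44 to -0.07. POLR2A, the catalytic subunit, had signals of 291 to 371 with OHT and 319 to 382 without OHT and was not called. POLR2B, its partner in the active centre, fell by 0.36 ± 0.05, with signals of 2500 to 2620 with OHT and 3160 to 3420 without OHT. The 4 called genes were POLR2G, POLR2J, POLR2B and POLR2C, and after median centring POLR2G and POLR2C were no longer called.

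Polymerase III subunits held both extremes of the polymerase genes. POLR3B, which forms the active centre of polymerase III together with POLR3A, had signals of 94.6, 110, 125 and 124 in scrambled cells with OHT, against 645, 568, 509 and 552 without OHT. Every OHT array was far below the lowest array without OHT. The log2 change was -2.18 ± 0.14 (limma adjusted p = 9.92e-09), lower than that of all but 0.959% of genes.

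POLR3G, one of the alternative subunits of the polymerase III initiation subcomplex, had signals of 490, 588, 490 and 509 with OHT, against 160, 221, 159 and 193 without OHT. The arrays did not overlap, and the log2 change was 1.43 ± 0.14 (limma adjusted p = 7.98e-07). POLR3C, another subunit of that subcomplex, was also higher, with 1210 to 1230 with OHT, 451 to 720 without OHT and a log2 change of 1.03 ± 0.13. POLR3F, also part of it, was not called, at -0.30 ± 0.13. POLR3K changed by 0.28 ± 0.07 and POLR3E by -1.30 ± 0.13.

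The polymerase I genes and the subunits shared between enzymes were lower or not called, with 1 exception. Of the 4 genes tested for polymerase I alone, POLR1G, POLR1F and POLR1B were lower, by log2 changes of -1.41, -0.93 and -0.35, and POLR1E was not called at 0.01. POLR1G had signals of 119 to 141 with OHT and 349 to 401 without OHT. The polymerases I and III share a pair of subunits that assemble together, and of these one was lower and the other higher. POLR1C had signals of 181, 193, 222 and 188 with OHT, against 691, 571, 579 and 658 without OHT, and changed by -1.59 ± 0.10 (limma adjusted p = 7.33e-09). POLR1D had 3290, 3070, 2990 and 3020 with OHT, against 2040, 2120, 2180 and 2190 without OHT, and changed by 0.53 ± 0.11 (limma adjusted p = 0.000781). In neither gene did the groups overlap. Of the 5 subunits common to all polymerases, POLR2K, POLR2E and POLR2L were lower, by -0.60 to -0.29, and POLR2F and POLR2H were not called.

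**Figure D2:**
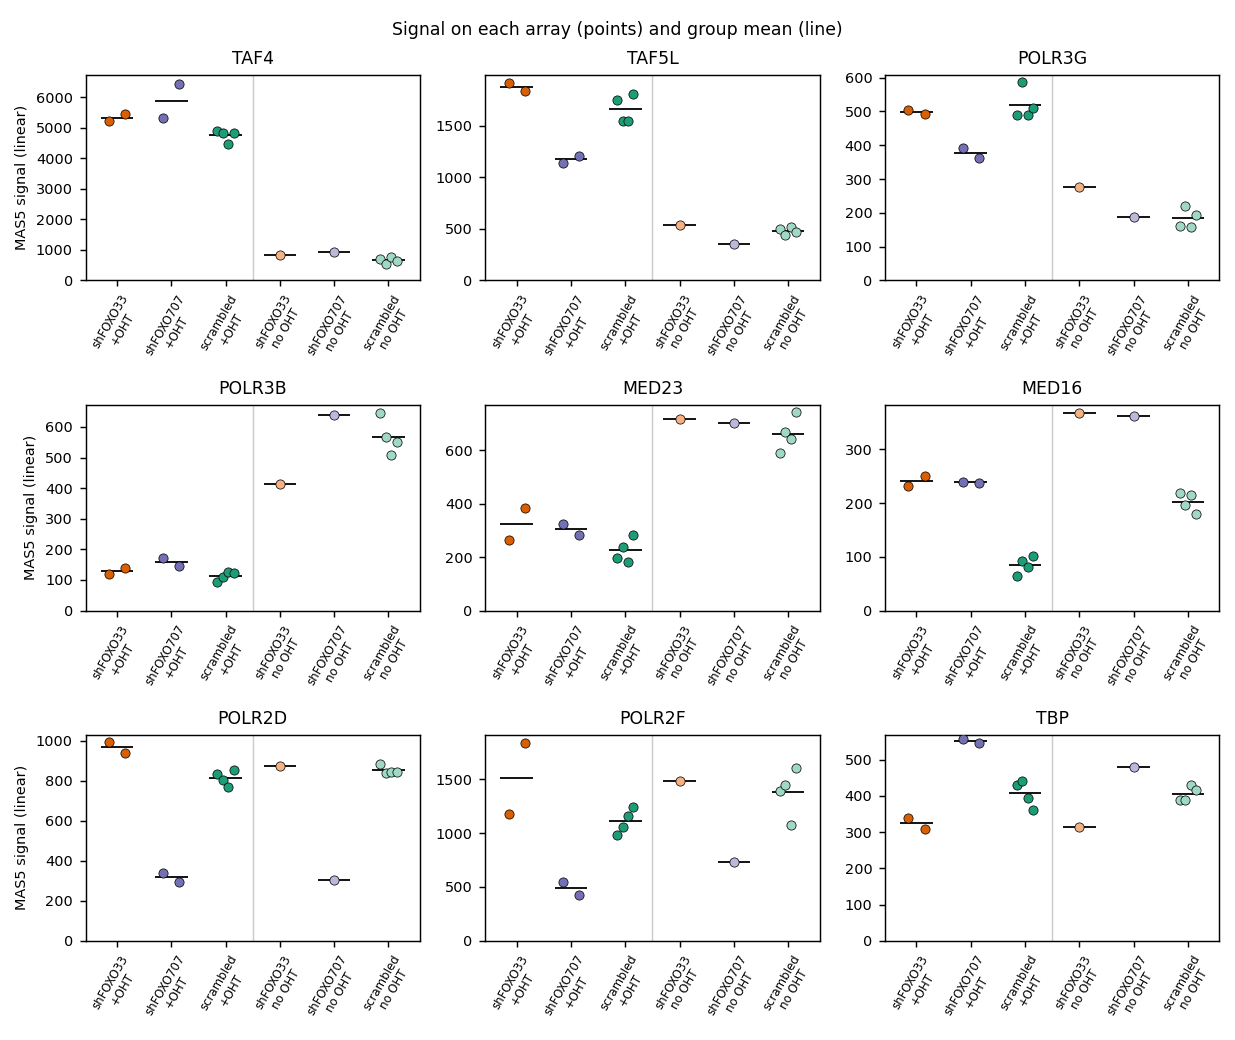
MAS5 signal on each array (points, linear axis from 0) and the group mean (line) of 9 genes in the 6 groups, with the OHT groups left of those without OHT. TAF4, TAF5L and POLR3G are higher and POLR3B and MED23 lower on every OHT array, MED16 is higher in both hairpin groups at either treatment, and POLR2D and POLR2F are lowest in shFOXO707 cells.

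The 14 GTF2 genes tested encode TFIIA, TFIIB, TFIIE, TFIIF, TFIIH and the TFII-I family. Of these, 9 were lower, beside 46.4% of all genes, and 0 higher, beside 24% (4 and 1 after median centring). GTF2B, the single-subunit factor TFIIB, had signals of 412 to 490 with OHT and 1020 to 1170 without OHT, a log2 change of -1.27 ± 0.15 (limma adjusted p = 4.55e-06). In each of the 2-subunit factors TFIIE and TFIIF, 1 subunit was lower and the other was not called. GTF2E1 changed by -1.25 ± 0.09, and GTF2E2 by -0.14 ± 0.07. GTF2F2 changed by -1.36 ± 0.16, with signals of 111 to 174 with OHT and 293 to 470 without OHT, and GTF2F1 by 0.43 ± 0.28. The GTF2F1 signals of 576 to 700 with OHT and 425 to 506 without OHT did not overlap. Its SE includes the difference between the hairpins, which was large in this gene. In TFIIA, GTF2A2 changed by -0.30 ± 0.05 and GTF2A1 was not called, and of the TFIIH core GTF2H1 fell by 0.71 ± 0.07. GTF2H5 and the pseudogene GTF2H2B were lower by -0.30 and -0.72, and GTF2H3 and GTF2H4 were not called. GTF2I and GTF2IRD1, signal-responsive factors of the TFII-I family, were lower at -0.52 and -0.38. The GTF2I probe set was dim, with a mean signal of 95.8, and the brighter ones that name GTF2I together with its pseudogenes, at 2120 and 2680, changed by -0.20 and -0.15. TAF15, an RNA-binding protein found with TFIID, changed by -0.39. Of the polymerase III factors, GTF3C3, GTF3C1, GTF3C2 and GTF3C4 of TFIIIC were lower by -0.99 to -0.38 and GTF3C5 was not called at 0.15.

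Mediator had the lowest median of the 5 gene families, at -0.96, with 12 of 19 genes tested lower and 3 higher (12 and 4 after median centring). In the head, which contacts polymerase II, 6 of 7 genes were lower, beside 46.4% of all genes, and 0 higher: MED20, MED28, MED22, MED17, MED8 and MED18 changed by -1.27 to -0.65, and MED27 was not called at -0.28. Yet MED27 had signals of 598 to 680 with OHT and 725 to 792 without OHT, with no overlap. The difference between the hairpins enters the error of this fit, although only scrambled arrays are compared. MED28 had signals of 359, 367, 398 and 375 with OHT, against 908, 886, 931 and 910 without OHT, with a wide gap between the groups. In the tail, the target of many activators, all 3 genes tested were lower. MED23 had signals of 198, 237, 180 and 284 with OHT, against 589, 669, 641 and 742 without OHT, a log2 change of -1.50 ± 0.14 (limma adjusted p = 3.15e-07). MED15 and MED16 changed by -1.29 ± 0.12 and -1.12 ± 0.11.

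The middle and the kinase module were mixed. MED21 and MED14, which join the parts of the core complex, were higher by 0.75 ± 0.06 and 0.62 ± 0.12. MED14 had signals of 1440 to 1770 with OHT and 947 to 1130 without OHT. MED7, the partner of MED21 in the middle, was lower, with 169 to 291 with OHT, 575 to 695 without OHT and a log2 change of -1.38 ± 0.18. MED1, the subunit that binds nuclear receptors, changed by -1.0 ± 0.06, and MED4 and MED9 were not called. In the kinase module, MED13L had signals of 1160 to 1510 with OHT and 452 to 666 without OHT, a change of 1.15 ± 0.13, and its paralog MED13 was not called at 0.14 ± 0.18. MED12, which activates the kinase, had 157, 154, 156 and 175 with OHT, against 470, 359, 436 and 398 without OHT, a change of -1.29 ± 0.09 (limma adjusted p = 3.49e-08).

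In 21 of the called genes, further probe sets lay above the filter, and 0 of these genes had one of the opposite sign. The 3 probe sets of MED13L changed by 0.77 to 1.62, and the 2 of MED7 by -1.62 and -1.38.

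Promoter sequence was read for the 69 members with an entry in the RefSeq promoter table (assembly GRCh38.p14), which gives 250 bases before and 50 after a gene's start. Where a gene had several windows, the first one listed was used. GTF2E2, GTF2H2B, GTF2I, GTF2IRD2B, MED13, MED14, MED21, MED22, MED28, MED8, POLR1E, POLR2G, POLR2I, POLR2J, POLR2J4, POLR2K, POLR3D, POLR3G, TAF15 and TAF2 had no entry. Shown are the genes with the largest rise, TAF4 and TAF5L, the largest fall, POLR3B, the largest knockdown effect, MED16, and TAF11, the 1 gene that held both an E2F and a forkhead word. Capitals mark the words found, on either strand: TTTGGCGC, TTTCCCGC, TTTGCCGC or TTTCGCGC for E2F, GTAAACA for forkhead factors such as FOXO, and the E-box CACGTG.
TAF4, chr20:62065832-62066131, minus strand: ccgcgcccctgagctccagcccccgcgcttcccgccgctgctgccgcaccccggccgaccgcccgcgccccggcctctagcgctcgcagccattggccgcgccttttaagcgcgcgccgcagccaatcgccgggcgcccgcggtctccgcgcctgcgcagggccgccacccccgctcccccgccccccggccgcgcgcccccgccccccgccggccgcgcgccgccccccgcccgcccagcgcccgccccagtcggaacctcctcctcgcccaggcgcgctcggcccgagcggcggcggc
TAF5L, chr1:229626073-229626372, minus strand: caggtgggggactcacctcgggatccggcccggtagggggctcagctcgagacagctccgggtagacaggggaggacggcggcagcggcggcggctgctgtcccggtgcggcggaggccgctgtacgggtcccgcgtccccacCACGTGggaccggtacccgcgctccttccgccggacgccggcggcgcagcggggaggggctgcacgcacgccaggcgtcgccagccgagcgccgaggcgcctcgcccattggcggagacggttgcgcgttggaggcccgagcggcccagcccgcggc
POLR3B, chr12:106357498-106357797, plus strand: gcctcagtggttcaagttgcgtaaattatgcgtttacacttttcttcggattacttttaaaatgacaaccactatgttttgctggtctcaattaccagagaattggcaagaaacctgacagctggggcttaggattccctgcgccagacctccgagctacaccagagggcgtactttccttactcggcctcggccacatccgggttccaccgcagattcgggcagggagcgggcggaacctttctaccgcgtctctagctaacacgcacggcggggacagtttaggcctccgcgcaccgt
MED16, chr19:893138-893437, minus strand: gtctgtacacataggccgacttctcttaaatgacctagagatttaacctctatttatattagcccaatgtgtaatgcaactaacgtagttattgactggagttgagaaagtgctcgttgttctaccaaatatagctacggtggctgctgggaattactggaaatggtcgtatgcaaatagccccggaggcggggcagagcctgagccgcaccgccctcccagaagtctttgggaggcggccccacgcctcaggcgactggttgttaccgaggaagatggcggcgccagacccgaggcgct
TAF11, chr6:34887993-34888292, minus strand: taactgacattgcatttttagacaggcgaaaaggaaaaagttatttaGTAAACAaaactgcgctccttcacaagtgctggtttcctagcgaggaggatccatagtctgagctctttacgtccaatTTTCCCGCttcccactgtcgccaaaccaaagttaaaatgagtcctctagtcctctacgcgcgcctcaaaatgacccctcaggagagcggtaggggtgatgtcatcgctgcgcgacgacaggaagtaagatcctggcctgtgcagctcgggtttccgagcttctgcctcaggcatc
An E2F word was in 6 of the 69 windows (8.7%), those of GTF2A1, MED18, MED9, POLR1F, POLR2A and TAF11, beside 3.33% of 27305 promoter windows. The 27305 windows include those of genes not tested here. Of the genes with an E2F word, MED18, POLR1F and TAF11 were lower with OHT in scrambled cells, and GTF2A1, MED9 and POLR2A were not called. A forkhead word was in 3 (4.35%), those of GTF3C2, POLR2C and TAF11, beside 3.41%, and an E-box in 13 (18.8%), beside 7.43%. Of the E-box genes, TAF5L, MED13L and POLR3C were higher with OHT in scrambled cells, and GTF2B, GTF2H1, GTF3C2, GTF3C4, POLR1G, POLR3E and TAF12 were lower. GTF2A1 and TAF6L were not called, and TAF4B was not tested. In GTF3C2 the forkhead word and the E-box overlap. These are matches of letters in a short window, and binding was not measured.

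In knockdown cells the machinery responded to OHT mostly in the same genes. There, 46 genes were lower, beside 37.3% of all genes, and 9 were higher, beside 20.6% of all genes (limma). The median change was -0.37, beside -0.20 over all genes. In all, 55 genes were called in knockdown cells, beside 57.9% of all genes, and 61 in scrambled cells, beside 70.5% of all genes. The same direction was called in both for 51 genes, which were 92.7% of those called in knockdown cells and 83.6% of those called in scrambled cells, and 0 were called in opposite directions. Over all genes these shares were 94.7% and 77.9%, with 3 opposite. TAF4 had signals of 5220, 5440, 5330 and 6450 in knockdown cells with OHT, against 839 and 923 without OHT, a log2 change of 2.65 ± 0.12 (limma adjusted p = 1.17e-09). POLR3B had 121, 139, 173 and 147 with OHT, against 413 and 640 without OHT, a change of -1.73 ± 0.17 (limma adjusted p = 1.63e-06). Both changes again left no overlap between the treatments. MED4, a middle subunit, was called higher in knockdown cells, at 0.28 ± 0.10. It was 0.11 (adjusted p = 0.416) without the shFOXO707 array without OHT, and was not called without replicate 2 of the shFOXO707 OHT arrays either. POLR1D and POLR3K were not called, at 0.22 ± 0.14 and 0.09 ± 0.08. After median centring the lower genes numbered 27, beside 1692 of all 7720 genes. POLR1D, POLR3K and GTF3A were then called higher, and GTF2A2, GTF2E2, POLR2B and POLR2J turned sign and were no longer called.

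**Figure D3:**
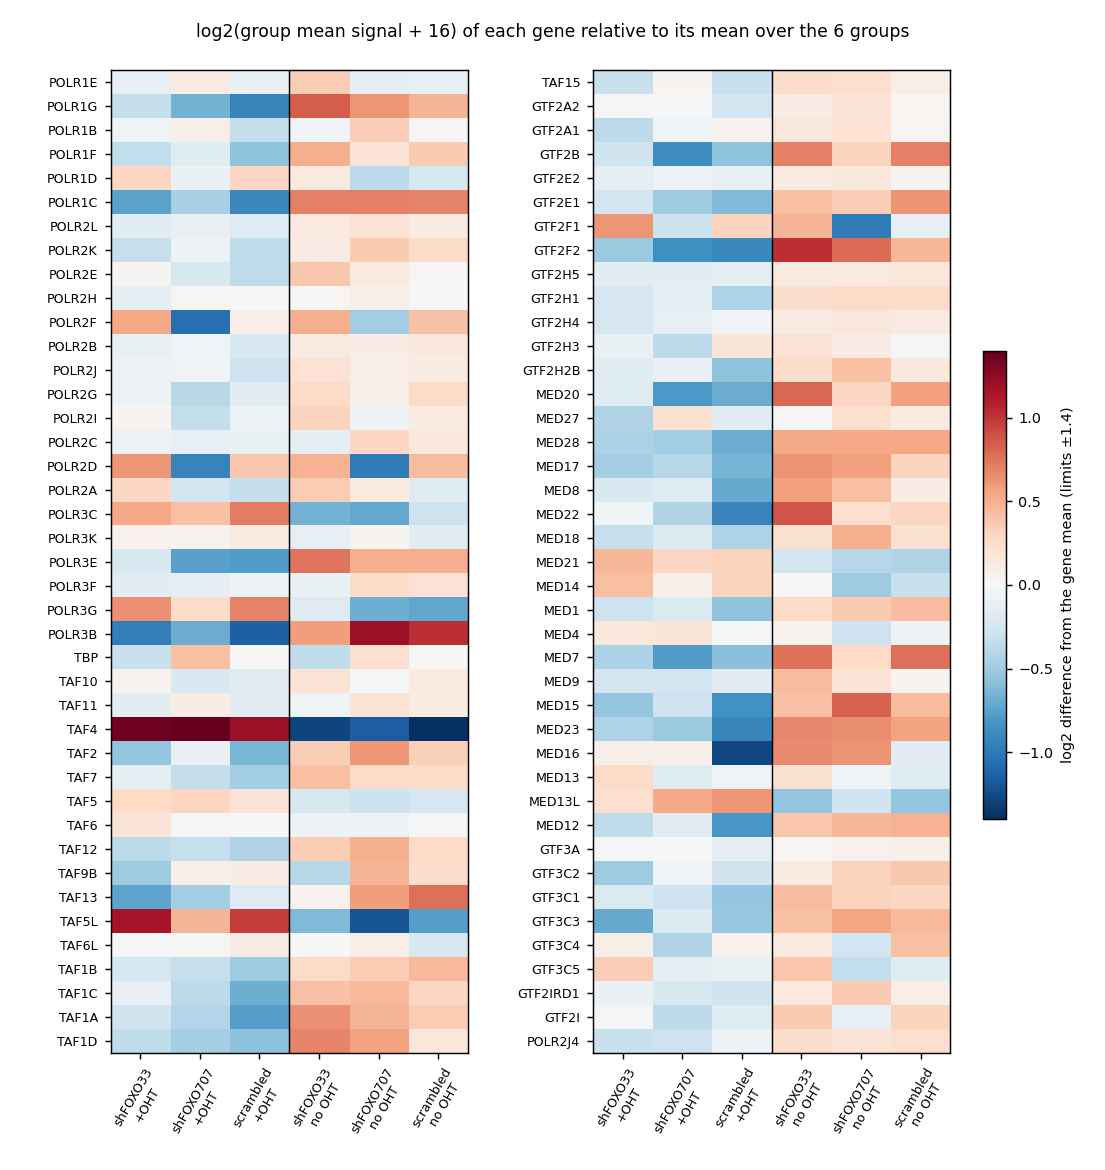
Colour shows log2(group mean signal + 16) of each of the 82 genes relative to its own mean over the 6 groups, with red above and blue below that mean and the OHT groups in the left 3 columns of each panel. TAF4 and TAF5L are red in the 3 OHT columns, the Mediator head and tail are mostly blue there, and GTF2F1, POLR2D and POLR2F stand out in the shFOXO707 columns.

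With OHT, knockdown cells had higher levels of a set of genes, Mediator and SL1 subunits among them, than scrambled cells. Of the 82 genes, 21 were higher, beside 14.7% of all genes, and 1 was lower, beside 8.01% of all genes (limma, hairpins pooled, n = 4 each). The median was 0.11, beside 0.04 over all genes. Mediator gave 8 of the 21 calls from 19 genes tested, and all 3 tail genes, 3 of 7 head genes and 3 of 4 SL1 genes were among them. With each hairpin alone all 3 tail genes were called higher, whereas 3 of 4 SL1 genes were called with shFOXO33 and 1 of 4 with shFOXO707. These calls come from the fit with 6 groups, so the share of 14.7% does not belong beside them. For both hairpins together that fit called 2039 of all 7720 genes higher, against 1138 in the pooled fit. Of the 6 genes tested for polymerase III alone, 0 were called. Without replicate 2 of the scrambled OHT arrays, 13 genes were higher and 0 lower.

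MED16, a tail subunit, stood out. Its signals with OHT were 231 and 251 in shFOXO33 cells and 240 and 238 in shFOXO707 cells, against 64.8, 91.5, 80.7 and 101 in scrambled cells. All 4 knockdown arrays lay far above the highest scrambled array. The log2 difference was 1.36 ± 0.11, 2.57-fold (limma adjusted p = 3.95e-06), higher than that of 99.8% of all genes. It was 1.36 ± 0.14 for shFOXO707 and 1.37 ± 0.14 for shFOXO33 alone, and the other MED16 probe sets above the filter gave 1.25 and 1.26. Without OHT MED16 had 368 in shFOXO33 cells and 362 in shFOXO707 cells, against 218, 196, 215 and 179 in scrambled cells, a difference of 0.81 ± 0.13 (limma adjusted p = 0.00266).

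The other differences with OHT were smaller. MED22, a head subunit, had 218 and 204 in shFOXO33 cells and 157 and 166 in shFOXO707 cells, against 104, 119, 103 and 110 in scrambled cells, a log2 difference of 0.68 ± 0.14. MED12 had 217 to 268 in knockdown cells and 154 to 175 in scrambled cells, a difference of 0.55 ± 0.09 (limma adjusted p = 0.00115). MED8, in the head, had 383 to 417 in knockdown cells and 265 to 284 in scrambled cells, a difference of 0.52 ± 0.06 (limma adjusted p = 0.000122). These groups did not overlap, whereas those of MED23 and TAF1C, at 0.46 ± 0.14 and 0.48 ± 0.15, did. MED15, POLR1G, TAF1A, TAF2, MED1, GTF3C1, POLR1C, TAF7, POLR2E, GTF2H1, GTF2A2, MED28, POLR2J, TAF1B and POLR2B made up the other calls, at 0.43 to 0.14, and after median centring POLR1C, POLR2B, POLR2E, TAF1B and TAF2 were no longer called. TAF2 and POLR1C were called with shFOXO707, at 0.54 and 0.45, but not with shFOXO33, at 0.11 and 0.15. POLR2E was called with shFOXO33, at 0.40, but not with shFOXO707, at 0.13. In TAF2, POLR1C and POLR2E the difference between the hairpins was called too. POLR1G and TAF1B were called with shFOXO33 only and POLR2B with shFOXO707 only. MED15 was not called without replicate 1 or replicate 3 of the scrambled OHT arrays. In MED1, called at 0.32 ± 0.06, the other probe set gave -0.01, and in TAF1B, called at 0.21 ± 0.07, it gave 0.01. TAF13, a histone-fold subunit of TFIID, was the 1 lower gene, with 80.3 to 111 in knockdown cells and 115 to 144 in scrambled cells, a difference of -0.43 ± 0.12 that was no longer called without replicate 2, 3 or 4 of the scrambled OHT arrays or without either shFOXO33 array.

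Without OHT, MED16 and MED8 were higher in knockdown cells and 0 genes were lower, beside 4.84% of all genes higher and 2.97% lower (limma). Unadjusted p-values were under 0.05 for 11 of the 82 genes, beside 21.5% of all genes. MED8 had 687 and 619 in knockdown cells and 476 to 511 in scrambled cells, a difference of 0.39 ± 0.08 (limma adjusted p = 0.00841). That call rests on 1 array per hairpin, and MED8 was not called without the array of shFOXO33, at 0.32 (adjusted p = 0.0681). Without replicate 4 of the scrambled OHT arrays or without either shFOXO707 OHT array, another MED8 probe set had the highest mean, and it gave 0.13. Leaving out the shFOXO707 array without OHT gave 4 genes higher and 1 lower.

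**Figure D4:**
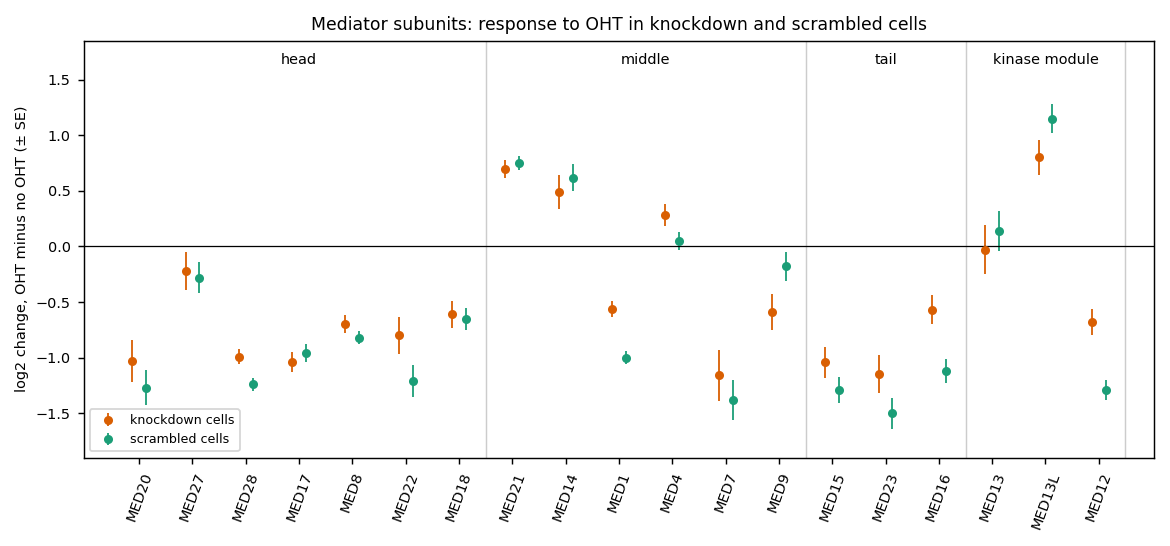
Log2 change between cells with and without OHT (vertical axis, ± SE) of the 19 Mediator genes tested, in knockdown cells (left of each pair) and scrambled cells (right), grouped by module. Head and tail genes lie below 0 in both, MED21, MED14 and MED13L lie above it, and MED1 and MED12 lie closer to 0 in knockdown cells, differences that were not called in the interaction test.

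Whether the response to OHT differed between knockdown and scrambled cells was tested as an interaction. Of the 82 genes, 0 were called in either direction, beside 0.0777% of all genes higher and 0.272% lower, and unadjusted p-values were under 0.05 for 10, beside 10.5% of all genes (limma). The smallest belonged to MED1, with an interaction of 0.44 ± 0.09 (adjusted p = 0.0655), and MED12, with 0.61 ± 0.15 (adjusted p = 0.102). MED12 changed with OHT by -0.68 ± 0.12 in knockdown cells and by -1.29 ± 0.09 in scrambled cells. In a fit with 6 groups, where the difference between the hairpins does not enter the error, GTF2E1, MED1, MED12 and TAF1B were called higher and POLR1D and POLR3G lower. That fit called 383 genes higher and 365 lower of all 7720. MED1 was also called under a stricter filter, at 0.44, where 20 genes were higher and 22 lower of all 5479. With the arrays of 1 hairpin alone, which leave 1 knockdown array without OHT, its interaction was 0.43 to 0.44. The other MED1 probe set, also above the filter, changed with OHT by -0.98 in knockdown cells and by -1.0 in scrambled cells.

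The hairpins differed from each other with OHT in 31 of the 82 genes, beside 43.5% of all genes. In shFOXO707 cells 12 genes were higher than in shFOXO33 cells, beside 22.1% of all genes, and 19 were lower, beside 21.4% of all genes (limma, n = 2 each). FOXO3 was left at 45.1% of its scrambled level in shFOXO707 cells and 17.1% in shFOXO33 cells, and the ACTB ratio was 2.0 ± 0.0611 in shFOXO707 cells and 1.61 ± 0.0159 in shFOXO33 cells (SD, n = 2 each). The part of either in these differences was not tested.

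The largest differences were in polymerase II genes. POLR2D, which with POLR2G forms the stalk of polymerase II, had 339 and 295 in shFOXO707 cells, against 993 and 938 in shFOXO33 cells, with 767 to 851 in scrambled cells. Between the hairpins the log2 difference was -1.56 ± 0.08 (limma adjusted p = 3.92e-10). Without OHT the single arrays gave 304 in shFOXO707 cells and 875 in shFOXO33 cells. Another POLR2D probe set gave -0.25 between the hairpins and -0.84 for shFOXO707 and -0.60 for shFOXO33 against scrambled cells, so the probe sets of this gene disagree on the contrast.

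POLR2F, common to all polymerases, had 550 and 428 in shFOXO707 cells, against 1180 and 1840 in shFOXO33 cells, with 984 to 1240 in scrambled cells. The difference was -1.57 ± 0.19 (limma adjusted p = 6.54e-06). GTF2F1, the large subunit of TFIIF, had 390 and 421 in shFOXO707 cells, against 780 and 786 in shFOXO33 cells, with 576 to 700 in scrambled cells. Its 3 probe sets gave -0.92, -0.75 and -0.93. In both genes the shFOXO707 arrays were below every array of the other viruses at that treatment.

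TBP went the other way. It had 556 and 545 in shFOXO707 cells, against 340 and 309 in shFOXO33 cells, with 362 to 441 in scrambled cells, so that the hairpins lay on either side of the scrambled arrays. The difference between them was 0.74 ± 0.10 (limma adjusted p = 2.64e-05). MED27, in the Mediator head, had 828 and 803 in shFOXO707 cells, against 524 and 519 in shFOXO33 cells, a difference of 0.63 ± 0.08 (limma adjusted p = 5.95e-06). TAF9B, a histone-fold TAF, had 167 and 189 in shFOXO707 cells, against 125 and 105 in shFOXO33 cells, a difference of 0.57 ± 0.14. TAF5L, MED20, GTF2B, POLR2A and POLR3E were lower in shFOXO707 cells, by -0.67 to -0.54. POLR2A had 322 and 344 in shFOXO707 cells and 470 and 520 in shFOXO33 cells, with 291 to 371 in scrambled cells, so that here the shFOXO33 arrays stood apart.

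**Figure D5:**
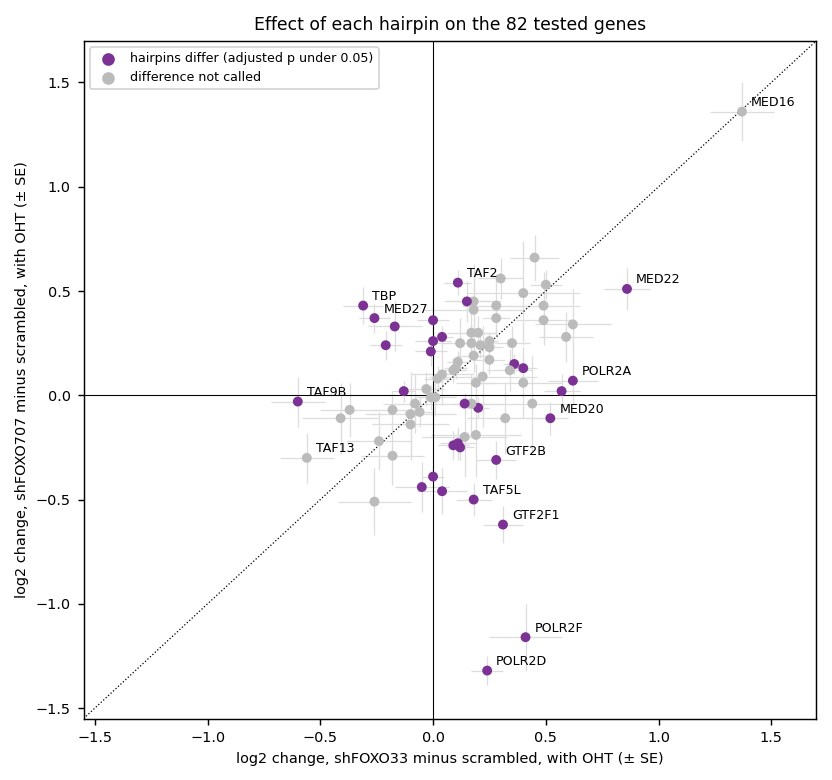
Each point is 1 of the 82 genes, placed by the log2 difference of shFOXO33 from scrambled cells (horizontal) and of shFOXO707 from scrambled cells (vertical) with OHT, ± SE. Both axes use the same scrambled arrays, so points tend toward the dotted line of equal values for that reason too. MED16 lies on that line at the upper right, and POLR2D and POLR2F lie at the bottom.

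Other genes of the same machinery, which the symbol rule does not take, were counted in 9 lists with 70 genes tested. Of these, 11 were higher, beside 24% of all genes, and 35 lower, beside 46.4% of all genes, with OHT in scrambled cells, and the median was -0.36. CDK19, the paralog of the Mediator kinase CDK8, changed by 1.06 ± 0.06 with OHT, and CDK7, the kinase of TFIIH, by -1.67 ± 0.11, with mean signals of 281 with OHT and 929 without OHT. Among the polymerase I factors UBTF, which opens ribosomal DNA, changed by 1.47 ± 0.10 and RRN3, which carries polymerase I to the promoter, by -0.91 ± 0.19. SNAPC1, of the complex that starts small nuclear RNA genes, had mean signals of 192 with OHT and 1400 without OHT, a change of -2.78 ± 0.10. Around TBP, its remover BTAF1 changed by 1.47 ± 0.07 and its paralog TBPL1 by -1.96 ± 0.12. All 4 genes of the mitochondrial polymerase list were lower, TFB2M most, at -1.53 ± 0.09. In the SAGA list, the ataxin subunit ATXN7 changed by 1.71 ± 0.16, beside 5 of 10 genes lower. With OHT, 12 of the 70 genes were higher, beside 14.7% of all genes, and 2 lower in knockdown cells than in scrambled cells, with a median of 0.07. Between the hairpins TADA3, an adaptor of SAGA, had mean signals of 142 in shFOXO707 cells and 844 in shFOXO33 cells, a difference of -2.44 ± 0.09.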

How the data were processed

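The authors deposited 1 linear intensity per probe set and array for 14 Affymetrix arrays, and the submitters' processing notes name MAS5 as the method, with no version, detection call or probe-level value used here. The mean of each array without its lowest and highest 2% of probe sets was 500. The authors' probe annotation was read from a platform table, and symbols were updated through RefSeq GRCh38.p14. Of 22277 probe sets, 62 were controls, 19064 named 1 gene, 1043 several and 2108 none, and those naming several or none were left out. Levels were log2(signal + 16), a scale on which changes of dim genes come out too small. Only probe sets were used with a mean above the 40th percentile (log2 of 6.57, a signal of 79.1). limma 3.58.1 in R 4.3.3 (lmFit, eBayes with a trend) fitted all 7720 genes over 14 arrays in 4 groups with the hairpins pooled, or in 6 groups for single hairpins. p-values were two-sided, Benjamini-Hochberg adjusted over the 7720 genes and called under 0.05. In the pooled fit, 2 arrays of 1 hairpin count as replicates, which can inflate the number of knockdown calls. The difference between the hairpins enters the error of every comparison in that fit, also that between scrambled arrays alone. The fit was tested on simulated data.

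The members, their roles and the further lists were chosen with earlier results of these data known. All members could be named. Values were given in full for the largest called changes without overlap between groups, and for members on which the hairpins or probe sets differ. From each further list, up to 3 called genes with the smallest adjusted p could be named. Replicate numbers did not pair the samples. The number of arrays limits the precision.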

Additional observations from a re-analysis of the deposited data

Results flagged for a closer look

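In 4 of 90 groups of 4 arrays examined, 1 array stood apart from the other 3, and chance gives about 1 in 20. TAF4 had 4460 on replicate 3 of the scrambled OHT arrays, against 4840 to 4890 on the others. MED12 had 175 on replicate 4 of that group, against 154 to 157. GTF3C3 had 213 on replicate 1 of that group, against 254 to 258. POLR2D had 881 on replicate 1 of the scrambled arrays without OHT, against 837 to 844.

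In 6 genes both hairpins differed from scrambled cells with OHT at an adjusted p under 0.05 and in opposite directions, and the difference between them was also called (limma). The same count was not made over all genes, of which 43.5% differed between the hairpins. Whether 6 is many for such a set cannot be told. Higher in shFOXO707 and lower in shFOXO33 cells were TBP, with a difference between the hairpins of 0.74, MED27 with 0.63 and GTF3C2 with 0.46. Lower in shFOXO707 and higher in shFOXO33 cells were POLR2D with -1.56, GTF2F1 with -0.92 and GTF2B with -0.59. The other POLR2D probe set was lower with both hairpins, by -0.84 with shFOXO707 and -0.60 with shFOXO33, and another GTF3C2 probe set gave 0.29 and 0.01. The ACTB ratio was 1.95 and 2.04 on the shFOXO707 arrays and 1.60 and 1.63 on the shFOXO33 arrays, and its part in these differences was not tested.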

How the results depend on the processing

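Counts of genes are given as higher and lower. In the response to OHT in scrambled cells, 30 were lower without _x_at and _s_at probe sets, beside 2109 of all 4717 genes. The counts there were 11 and 55 with 6 groups, beside 2108 and 4177 of all 7720 genes. In knockdown cells, 28 were lower without those probe sets, beside 1728 of all 4717 genes, and 27 with median centring, beside 1692 of all 7720 genes. Between the hairpins, 10 were lower without those probe sets, beside 923 of all 4717 genes. For knockdown against scrambled cells with OHT, the counts were 9 and 2 without those probe sets, beside 646 and 338 of all 4717 genes. They were 33 and 7 with 6 groups, beside 2039 and 1601 of all 7720 genes. With the mean over probe sets 2 were lower, beside 648 of all 7720 genes. With a filter at the 60th percentile 0 were lower, beside 537 of all 5479 genes. The median of the members was 0.17 with shFOXO33 alone, beside 0.06 over all genes, and 0.09 with shFOXO707 alone, beside 0.05. Without OHT they were 1 and 1 without those probe sets, 8 and 3 with 6 groups, 10 and 4 with shFOXO33 alone, 5 and 7 with shFOXO707 alone, and 1 higher with the mean over probe sets and with the 60th percentile filter. The interaction had a median of 0.11 over the members with shFOXO33 alone, beside 0.03 over all genes, and of 0.1 with shFOXO707 alone, beside 0.04. It gave 4 and 2 with 6 groups, beside 383 and 365 of all 7720 genes, and 1 higher with the 60th percentile filter, beside 20 of all 5479 genes. The fits without _x_at and _s_at probe sets tested 51 of the genes, and that filter 61.

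Leaving out 1 array at a time gave 13 to 21 higher and 0 to 1 lower for knockdown with OHT, 1 to 4 higher and 0 to 1 lower without OHT, and 0 and 0 in the interaction. The response to OHT had 10 to 11 higher and 44 to 52 lower in scrambled cells and 7 to 11 higher and 40 to 48 lower in knockdown cells. The hairpins differed in 8 to 12 higher and 14 to 20 lower genes. A lone array left in a group was assumed to vary like the other groups.

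Replicate numbers were shared between groups, and deviations of same-numbered arrays correlated at -0.06 to 0.0469. With the replicate number as a block, scrambled arrays gave 11 higher and 55 lower with OHT, against 11 and 56 without it. In the OHT arrays numbered 1 and 2, knockdown against scrambled gave 1 and 0 with the replicate block and 1 and 0 without it. Over all 7720 genes it gave 13 and 6 with the block and 92 and 48 without it, against 1138 and 618 in the main fit. With so few calls this subset cannot show whether the block matters for these genes.

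Median centring turned the sign of GTF3A in the OHT response of scrambled cells and of GTF2A2, GTF2E2, POLR2B and POLR2J in that of knockdown cells, which are not among the single-gene results recomputed. Of those, 1752 values under an alternative kept their direction and call, 81 in 18 results lost the call, and 0 reversed. Across those alternatives TAF4, TAF5L, POLR3B and MED16 kept their calls in the comparisons named for them. POLR2D lost its hairpin call, at -0.25 (adjusted p = 0.215), without the _s_at probe set. TAF2 lost its knockdown call with OHT under 15 alternatives and POLR1C its hairpin call under 15.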

Other observations

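Probe sets that name several genes were outside the comparisons, and their values are given without a test. One that names MED24, a Mediator tail subunit, together with MIR6884 had mean signals with OHT of 318 in shFOXO33 cells and 262 in shFOXO707 cells, against 83.6 in scrambled cells, a log2 difference of 1.60. Without OHT it had 318 in shFOXO33 cells and 320 in shFOXO707 cells, against 133 in scrambled cells, a difference of 1.17. The probe set that names MED24 alone stayed below the filter. Of 3 probe sets that name POLR2M, a regulator of polymerase II, together with GCOM1, the log2 differences of knockdown from scrambled cells with OHT were 0.71, 0.44 and -0.07. The first had 630 in shFOXO33 cells and 699 in shFOXO707 cells, against 400 in scrambled cells with OHT. Without OHT it had 1090 in shFOXO33 cells, 1180 in shFOXO707 cells and 708 in scrambled cells. The third had 254 in shFOXO33 cells and 181 in shFOXO707 cells, against 226 in scrambled cells with OHT. The probe set for AK6 and TAF9, a histone-fold TAF, changed by -0.06 with OHT in scrambled cells.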
